A study of Homo sapiens with 8 samples.

Results

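The unfolded protein and amino acid stress response was followed through 35 genes, the rows of the RNA-seq files whose gene symbol is on a list of the response's sensors, transcription factors, chaperones, degradation factors, feedback genes and amino acid enzymes. All 35 were found among the 60558 genes listed, and all 35 passed the filter on low levels, at least 1 FPKM in at least 2 libraries, which kept 14206 genes. FPKM scales the fragments of a gene by transcript length and by the mapped fragments of the library, so levels can be compared between genes. The cells were 2D human intestinal epithelial cells (hIECs) differentiated from the human embryonic stem cell line H9, and each of the 4 groups holds 2 libraries. Normal hIECs received neither agent. Normal hIECs with PM10 (labelled PM10) were exposed to 100 µg/ml of PM10, coarse airborne particulate matter, for the last 7 days. Inflamed hIECs (labelled IT) were kept in 50 ng/ml of interferon γ (IFNγ) and 50 ng/ml of tumor necrosis factor α (TNFα) for 10 days to model chronic inflammation, and inflamed hIECs with PM10 (labelled IT-PM10) received the cytokines for 10 days and PM10 for the last 7 days. All groups come from the same cell line, and no label says whether the 2 libraries of a group came from separate cultures, so the p-values below measure only the spread between these libraries, which may be technical.

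The libraries listed 16547 to 18926 genes above 0. Mitochondrial genes held 15.5% to 20.4% of all FPKM in 7 libraries and 24.2% in normal replicate 2. Defining markers of the labelled cell type were low or at 0. Of 10 epithelial markers, EPCAM, CDH1, CLDN4 and ELF3 stayed under 1 FPKM and CDX2 and ESRP1 were listed at 0 in every library. Of 10 intestinal cell type markers, 9 (VIL1, LYZ, MUC2, CHGA, KRT20, FABP1, SI, ALPI and APOA4) were listed at 0 in every library. The remaining marker, LGR5, held 2.01 to 2.63 FPKM in normal hIECs and 2.31 to 2.33 FPKM in normal hIECs with PM10. It was higher with cytokines, at 5.26 to 5.68 FPKM in inflamed hIECs and 7.92 to 8.28 FPKM with both agents. The 10 epithelial markers together, mostly keratins and SOX9, summed to 612 to 666 FPKM without cytokines and 291 to 356 FPKM with them. The 10 mesenchymal markers, COL3A1 and VIM among them, summed to 5009.7 to 5028 FPKM in normal hIECs, 4350.3 to 4369 FPKM in normal hIECs with PM10, 5664 to 5731 FPKM in inflamed hIECs and 4995 to 5020.2 FPKM with both agents. The 8 neuronal markers summed to 200.8 to 228 FPKM without cytokines and 121 to 137 FPKM with them. The part of cell makeup in the results was not tested, and in these bulk libraries fewer cells of a type and less RNA per cell cannot be told apart. The group names below are those of the labels.

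Secreted and membrane proteins fold in the endoplasmic reticulum (ER), where chaperones such as BiP hold unfinished chains, and misfolded chains are sent back to the cytosol for degradation. When unfolded protein builds up, the sensors IRE1, PERK and ATF6 in the ER membrane raise the transcription of chaperones and degradation factors through XBP1 and ATF6, while phosphorylation of the translation factor eIF2 by PERK favours translation of ATF4. Lack of an amino acid reaches the same ATF4 through the kinase GCN2, and ATF4 drives amino acid enzymes together with a set of feedback genes that restore translation or slow growth. In the intestine the response is best known from secretory cells, whose load of secreted protein is high, and from inflamed mucosa.

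ATF6 and XBP1 act through short elements just upstream of their targets. These are shown first because they mark which of the 35 genes carry exact matches to the classical target sites. The 250 bases upstream of each RefSeq transcription start (build GRCh38.p14) were searched on both strands in 35116 windows of all genes. For 34 of the 35 genes there were 46 such windows, and PDIA3 had none. The ER stress element (ERSE, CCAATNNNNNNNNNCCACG) occurred in 0.0740% of all windows, and 7 of the 34 genes carried it. Its sites are shown with the fixed letters in capitals, each read in the direction of the element, with the strand of that reading:
HSPA5, chr9:125241391-125241409, minus strand: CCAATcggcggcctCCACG
HSP90B1, chr12:103930216-103930234, plus strand: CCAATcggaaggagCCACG
HSP90B1, chr12:103930321-103930339, minus strand: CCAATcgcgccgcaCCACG
CALR, chr19:12938384-12938402, minus strand: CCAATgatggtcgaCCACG
CANX, chr5:179698778-179698796, plus strand: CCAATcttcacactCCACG
PDIA6, chr2:10812853-10812871, minus strand: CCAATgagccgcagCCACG
CRELD2, chr22:49918554-49918572, minus strand: CCAATccgagttcgCCACG
XBP1, chr22:28800603-28800621, minus strand: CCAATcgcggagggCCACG

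A second form of the element, ERSE-II (ATTGGNCCACG), occurred in 0.0513% of all windows and in 3 further genes:
HYOU1, chr11:119057380-119057390, plus strand: ATTGGaCCACG
HYOU1, chr11:119057274-119057284, plus strand: ATTGGaCCACG
HERPUD1, chr16:56932025-56932035, plus strand: ATTGGgCCACG
SDF2L1, chr22:21642114-21642124, minus strand: ATTGGtCCACG
The XBP1 element UPRE (TGACGTGG, 0.612% of windows) matched HYOU1 alone, where it overlaps the ERSE-II that lies farther from the start. The amino acid response element that binds ATF4 with its C/EBP partners (CARE, TGATGNAA) was the commonest, in 3.14% of windows, and matched ASNS, CHAC1 and HERPUD1. The sites of ASNS and CHAC1 are shown within 30 bases of the gene's own strand, capitals marking the element, which in CHAC1 reads on the opposite strand. Both lie upstream of the RefSeq start but inside the span GENCODE 44 gives the gene:
ASNS, chr7:97872458-97872487: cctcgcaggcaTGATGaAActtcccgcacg
CHAC1, chr15:40953251-40953280: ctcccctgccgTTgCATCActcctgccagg
For the genes with the best known elements, the upstream sequence outside the annotated gene (GENCODE 44) is given 5′ to 3′ on the gene's strand, with the elements in capitals. By exact match of the letters, HSPA5 carries 1 ERSE, HYOU1 2 ERSE-II of which 1 runs into a UPRE, and HERPUD1 a CARE and an ERSE-II:
HSPA5, chr9:125241383-125241593: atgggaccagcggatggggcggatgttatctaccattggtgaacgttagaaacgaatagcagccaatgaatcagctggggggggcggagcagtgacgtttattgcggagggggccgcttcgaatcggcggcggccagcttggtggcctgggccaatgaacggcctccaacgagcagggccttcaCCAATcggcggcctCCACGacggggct
HYOU1, chr11:119057228-119057455: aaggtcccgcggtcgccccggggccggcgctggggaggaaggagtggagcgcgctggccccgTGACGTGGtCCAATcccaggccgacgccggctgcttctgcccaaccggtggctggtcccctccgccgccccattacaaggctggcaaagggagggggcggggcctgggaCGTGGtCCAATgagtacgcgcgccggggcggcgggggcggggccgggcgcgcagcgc
HERPUD1, chr16:56931892-56932141: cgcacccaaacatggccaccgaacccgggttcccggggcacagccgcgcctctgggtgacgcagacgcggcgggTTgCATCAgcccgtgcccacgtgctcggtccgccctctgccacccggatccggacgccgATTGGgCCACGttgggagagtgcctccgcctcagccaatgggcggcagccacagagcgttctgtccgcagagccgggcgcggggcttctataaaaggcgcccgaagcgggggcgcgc
In all, 10 genes had an ERSE or ERSE-II and 12 had any of the 4 elements. The other 23 include PDIA3, for which no window was searched. A match is an exact match of letters only. The absence of one says nothing about sites that differ from these letters or about letters outside these 250 bases.

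Cytokines without PM10 (inflamed against normal hIECs) moved most of the 35 genes, and mostly upward. The degradation gene EDEM1 rose 2.18-fold, the transcription factor gene CEBPB 2.01-fold and SEL1L, also of degradation, 1.57-fold, and the 3 sensor genes, 10 of 14 folding genes and 4 of 5 feedback genes rose, most of them by less than 1.5-fold. PHGDH, the first enzyme of serine synthesis, the receptor gene VLDLR and DDIT3, which encodes CHOP, fell. By limma on log2(FPKM + 1), with Benjamini-Hochberg adjustment over all 14206 genes and a threshold of 0.05, 22 of the 35 were called higher and 4 lower, where 25.9% of all genes tested were called higher and 30.3% lower. Folds are on the FPKM + 1 scale, which understates the change of low genes. The median change was 0.24 on the log2 scale over the 35 genes and -0.028 over all genes tested. In all 26 genes called, both libraries of one group lay beyond both of the other. A call from 2 libraries against 2 makes such separation likely, so it adds no support. Its share among all genes was not counted. Without inflamed replicate 1, and likewise without inflamed replicate 2, 17 were called. Without normal replicate 2, the library with the high mitochondrial share, 23 were. The shares of all genes moved too, to 20.17% higher and 24.05% lower without inflamed replicate 1 and 20.52% and 25.35% without inflamed replicate 2. Without normal replicate 2 they were 21.35% and 29.5%.

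With PM10 present in both groups (inflamed hIECs with PM10 against normal hIECs with PM10), the 3 sensor genes, 7 of 14 folding genes and 2 of 4 degradation genes were called higher with cytokines, and 2 folding genes and 1 degradation gene lower. EDEM1 rose 2.198-fold, SEL1L 1.95-fold, PDIA6 1.74-fold and CANX, the membrane lectin chaperone calnexin, 1.65-fold, while PHGDH and DDIT3 fell to 0.458 and 0.495 of their level without cytokines. In this comparison 16 of the 35 genes were called higher and 6 lower, with 25.8% and 39.6% of all genes tested, and the medians were 0.21 for the 35 genes and -0.11 for all genes. These libraries are not those of the preceding comparison, but both comparisons use 1 estimate of the spread of each gene. That can favour the same genes in both lists of calls. With the lists laid over each other, 14 genes were called higher in both, 63.6% of the 22 and 87.5% of the 16. Over all genes tested, the genes called higher in both made up 80.5% of the first list and 81.0% of the second. DDIT3, PHGDH and VLDLR were called lower in both, 75% of 4 and 50% of 6 genes, where the shares over all genes were 90.5% and 69.2%. None of the 35 was called in opposite directions. No library left out moved the count of 22 by over 1.5 times (15 to 25 called). The shares of all genes then ran from 21.24% to 27.45% higher and from 33.27% to 40.91% lower.

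PM10 moved few of the 35 genes in normal hIECs. The serine pathway enzymes PSAT1 and PHGDH fell to 0.714 and 0.793 of their level, HSP90B1 and SDF2L1 fell and HYOU1 rose, each of these 3 by less than 1.2-fold. That is 1 gene called higher and 4 lower, where 5.51% of all genes tested were called higher and 3.72% lower. The medians were 0.024 over the 35 genes and 0.059 over all genes. None of the 5 calls held under every alternative: 0 genes were called without normal_PM10 replicate 1 (and in a fit of the 4 libraries alone), 1 without normal_PM10 replicate 2, 2 without any one of the 4 cytokine-treated libraries, and 11 without normal replicate 1. Over all genes, 0.577% were called higher and 0.788% lower without normal_PM10 replicate 1, and 13.2% and 5.29% without normal replicate 1. After centring each library on its median, 0 of the 35 were called higher and 6 lower, where 3.96% and 5.27% of all genes were.

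When PM10 was added to inflamed hIECs, 3 of 5 feedback genes and 2 of 3 amino acid genes were called lower, and 2 of 14 folding genes and 1 of 4 degradation genes higher. TRIB3 fell to 0.562, DDIT4 to 0.644, CHAC1 to 0.695, PHGDH to 0.643 and DDIT3 to 0.641 of their level without PM10, while CANX rose 1.34-fold, SEL1L 1.28-fold and DNAJB9 1.27-fold. Of the 35 genes, 3 were called higher and 7 lower, where 6.22% of all genes tested were called higher and 9.02% lower. The medians were -0.047 over the 35 genes and -0.0061 over all genes. The 2 PM10 comparisons share no library but share the estimate of the spread of each gene. PHGDH and PSAT1 were the genes called in both, lower each time. They made up 50% of the 4 and 28.6% of the 7 genes called lower, where the shares over all genes were 30.9% and 12.7%. The count fell to 3 without inflamed replicate 1 and to 5 without inflamed replicate 2. It was 3 without inflamed_PM10 replicate 1 and 4 without inflamed_PM10 replicate 2, and it rose to 15 without either normal library. The shares of all genes moved too, to 1.67% higher and 3.08% lower without inflamed replicate 1. Without normal replicate 1 they were 9.69% and 11.4%. PHGDH, TRIB3 and DDIT4 were called throughout.

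**Figure D1:**
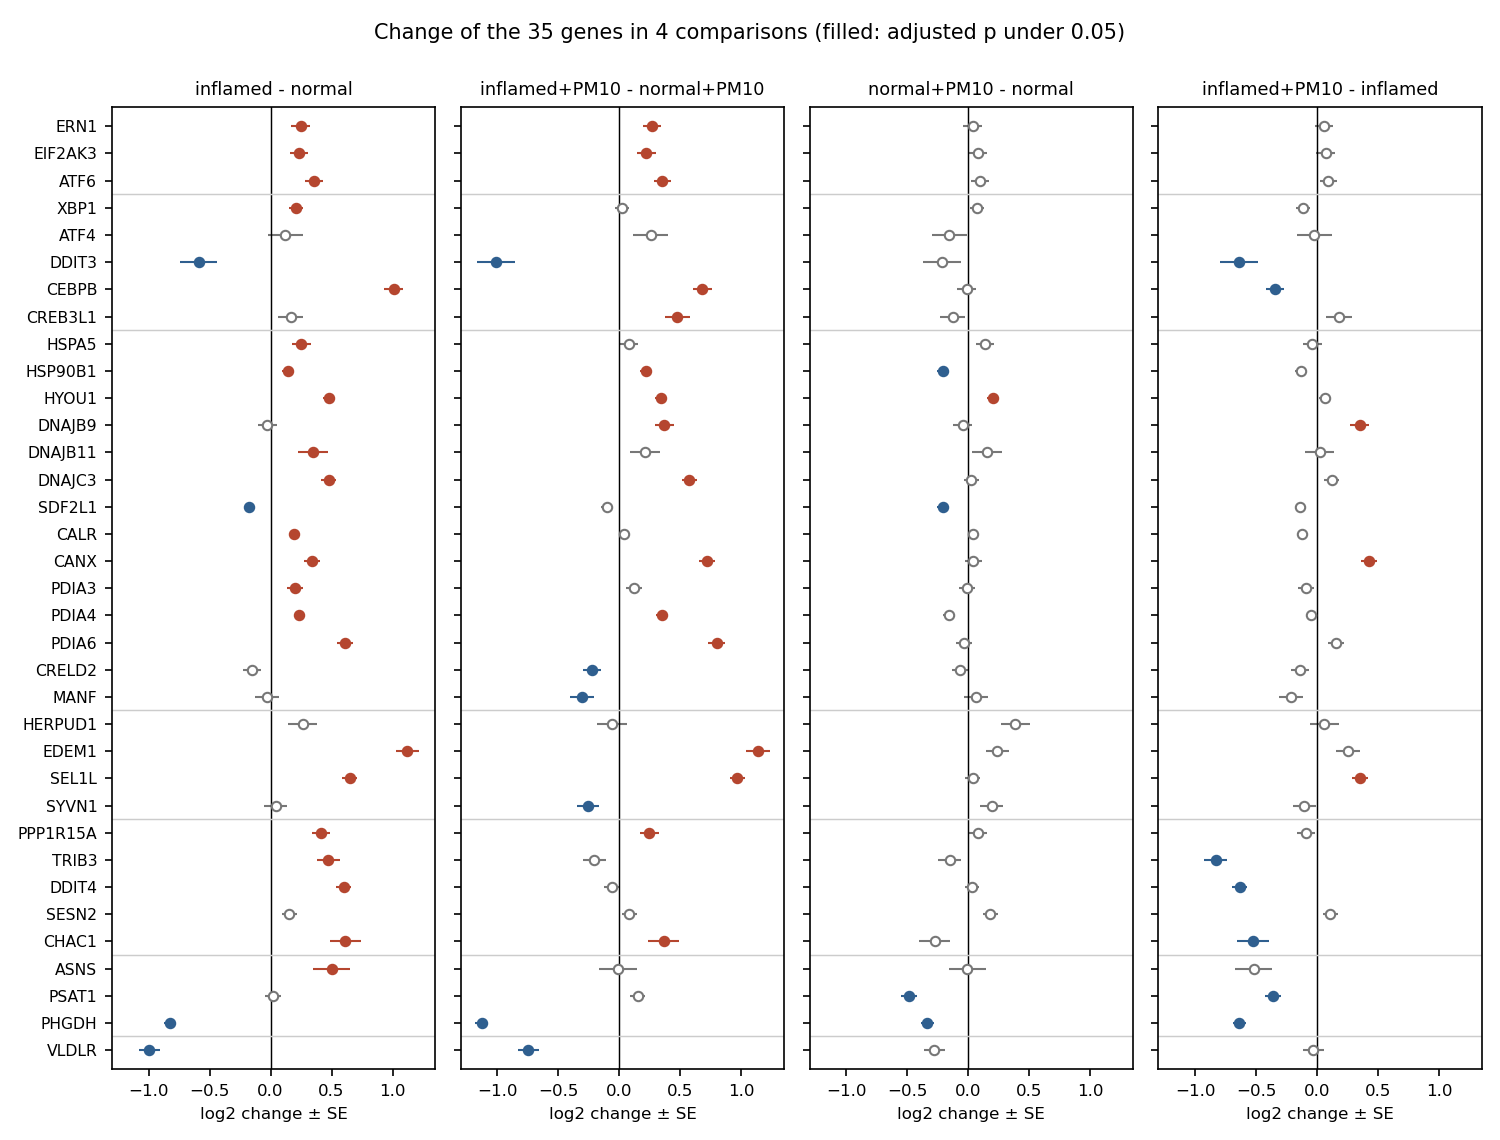
Log2 change (x axis) of each of the 35 genes (rows, grouped by role with grey lines between groups) in the 4 comparisons, with the SE from limma as bars. Filled red points were called higher and filled blue points lower; the left panels are mostly red (22 and 16 genes), and with PM10 in inflamed hIECs 3 of the 5 feedback genes and 2 of the 3 amino acid genes are blue.

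The genes of the 3 sensors, among the least abundant of the set, rose together with cytokines. ATF6, the sensor that is cleaved to a transcription factor, stood at 6.70 and 6.21 FPKM in normal hIECs and at 7.06 and 6.88 FPKM after PM10. The level in inflamed hIECs was 8.79 and 8.28 FPKM, against 8.71 and 9.64 FPKM with both agents. All 4 cytokine-treated libraries lay above all 4 others, and the log2 change was 0.35 ± 0.071 (adjusted p = 0.00421) without PM10 and 0.35 ± 0.071 (adjusted p = 0.00356) with it. ERN1, which encodes IRE1, the kinase and RNase that splices XBP1 mRNA, ranged from 1.53 to 1.66 FPKM without cytokines and from 2.00 to 2.24 FPKM with them. EIF2AK3, the gene of PERK, ranged from 3.56 to 4.15 FPKM and from 4.58 to 5.07 FPKM. Their changes were 0.25 and 0.23 without PM10 (adjusted p = 0.0269 and 0.0315), and each call was lost in 4 of 16 alternatives. With PM10 they were 0.27 and 0.22 (adjusted p = 0.0165 and 0.0321), calls lost in 2 and 6 of 16 alternatives. No sensor gene passed the test in either PM10 comparison, where the changes were between 0.036 and 0.097. None of the 3 was at an unadjusted p under 0.05 there. The activity of the sensors, splicing and phosphorylation, is not measured by these levels.

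CEBPB and DDIT3 were the transcription factor genes called in the most comparisons. CEBPB encodes C/EBPβ, a partner of ATF4 that also serves cytokine signalling. CEBPB stood at 5.70 and 6.59 FPKM in normal hIECs and at 5.83 and 6.305 FPKM after PM10. Among cytokine-treated libraries the values were 13.1 and 13.6 FPKM without and 10.5 and 10.1 FPKM with PM10. Cytokines raised it by 1.01 ± 0.077 (adjusted p = 3.29e-05) without PM10 and by 0.68 ± 0.077 (adjusted p = 0.000179) with PM10. In inflamed hIECs it fell by 0.34 ± 0.077 with PM10 (adjusted p = 0.0263), a call lost in 4 of 16 alternatives. Its level there stayed above every library without cytokines. In normal hIECs its libraries with and without PM10 overlapped. DDIT3 went the other way. It encodes CHOP, which ATF4 induces under lasting stress. DDIT3 stood at 29.6 and 43.9 FPKM in normal hIECs and at 31.0 and 30.7 FPKM after PM10. Inflamed hIECs held 23.9 and 23.4 FPKM without PM10 and 15.5 and 14.1 FPKM with it. The inflamed libraries lay below all normal ones and those with PM10 lower still, with changes of -0.59 ± 0.15 (adjusted p = 0.0137) and -1.01 ± 0.15 (adjusted p = 0.000831) for the cytokines and -0.64 ± 0.15 (adjusted p = 0.0339) for PM10 in inflamed hIECs, the last lost in 7 of 16 alternatives. Its exons overlap those of MARS1 (up to 60.3 FPKM) and MBD6, and the libraries were not strand-specific, so reads of these genes may be counted to each other and the DDIT3 level is uncertain.

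ATF4 mRNA itself was called in none of the comparisons. It stood at 130.1 and 172 FPKM in normal hIECs and at 133 and 135 FPKM after PM10. The inflamed libraries held 161 and 165 FPKM, and those with both agents 181 and 142 FPKM. Replicates of 1 group differed by as much as the groups did. XBP1, the factor that IRE1 activates by splicing, ranged from 46.2 to 51.8 FPKM without cytokines, was 56.4 and 56.5 FPKM in inflamed hIECs and 51.5 and 52.8 FPKM in inflamed hIECs with PM10. Its change passed the test without PM10 (0.21 ± 0.058, adjusted p = 0.0187) and not with it (0.024 ± 0.058, adjusted p = 0.732), and the difference between these changes did not pass either (adjusted p = 0.236). CREB3L1, a membrane-bound relative of ATF6 known from collagen-secreting cells, showed the opposite: 0.16 ± 0.10 without PM10 (adjusted p = 0.216) and 0.47 ± 0.10 with it (adjusted p = 0.00522), with an adjusted p of 0.259 for the difference. Its levels were 23.6 and 30.4 FPKM in normal, 23.9 and 24.97 in normal with PM10, 29.8 and 30.4 in inflamed and 34.99 and 33.7 FPKM in inflamed hIECs with PM10, and the second normal library reached the inflamed ones.

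The 14 chaperone and folding genes held most of the transcripts of the set, 2496 to 2662 FPKM of 3025 to 3128 FPKM in normal hIECs and 2961 to 2999 FPKM of 3495 to 3532 FPKM in inflamed hIECs. Without PM10, 10 of the 14 were called higher with cytokines and 1 lower, where 25.9% of all genes were called higher and 30.3% lower. With PM10, 7 were called higher and 2 lower, where the shares of all genes were 25.8% and 39.6%. PDIA6, a protein disulfide isomerase that attenuates IRE1, rose most. PDIA6 stood at 171 and 148 FPKM in normal hIECs and at 155 and 156 FPKM after PM10. With cytokines the level was 243 and 242 FPKM without PM10 and 271 and 269 FPKM with PM10. All libraries with cytokines lay above all others, with changes of 0.61 ± 0.066 (adjusted p = 0.000189) and 0.80 ± 0.066 (adjusted p = 3.52e-05). DNAJC3 (p58IPK), a co-chaperone that restrains PERK, stood at 8.53 and 7.77 FPKM in normal hIECs and at 8.45 and 8.14 FPKM after PM10. Its values were 11.8 and 11.6 FPKM in inflamed hIECs and 12.7 and 12.9 FPKM in those with PM10. Cytokine-treated and other libraries again did not overlap (0.48 ± 0.061, adjusted p = 0.000444, and 0.57 ± 0.061, adjusted p = 0.000131). HYOU1, which exchanges nucleotide on BiP, stood at 32.8 and 33.5 FPKM in normal hIECs and at 37.7 and 39.0 FPKM after PM10. The level in inflamed hIECs was 45.4 and 48.0 FPKM, against 48.4 and 49.0 FPKM with both agents. Its changes with cytokines were 0.48 ± 0.049 (adjusted p = 0.000141) and 0.34 ± 0.049 (adjusted p = 0.000664), and PM10 raised it in normal hIECs by 0.21 ± 0.049 (adjusted p = 0.0458), which 13 of 16 alternatives did not call.

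CANX, the gene of calnexin, was highest with both agents. Calnexin binds the sugar of new glycoproteins, as does the soluble calreticulin (CALR). CANX stood at 79.6 and 70.9 FPKM in normal hIECs and at 78.2 and 76.6 FPKM after PM10. Among cytokine-treated libraries the values were 92.7 and 97.6 FPKM without and 132 and 124 FPKM with PM10. Cytokines raised it by 0.34 ± 0.066 (adjusted p = 0.00386) without PM10 and by 0.72 ± 0.066 (adjusted p = 6.27e-05) with it. In inflamed hIECs PM10 raised it by 0.42 ± 0.066 (adjusted p = 0.00758), a call lost in 2 of 16 alternatives. The difference between the 2 PM10 changes was 0.38 ± 0.094 (adjusted p = 0.0569). CALR, the most abundant gene of the set, stood at 877 and 887 FPKM in normal hIECs and at 909 and 902 FPKM after PM10. Inflamed hIECs held 1001 and 1017 FPKM without PM10 and 930.1 and 926 FPKM with it. Its rise with cytokines passed the test without PM10 (0.19 ± 0.04, adjusted p = 0.00478) and its change with PM10 was 0.036 ± 0.04 (adjusted p = 0.456), although both libraries of inflamed hIECs with PM10 lay above those of normal hIECs with PM10. DNAJB9, a BiP co-chaperone that represses IRE1, stood at 15.8 and 13.3 FPKM in normal hIECs and at 14.1 and 13.8 FPKM after PM10. The inflamed libraries held 13.8 and 14.5 FPKM, and those with both agents 18.1 and 18.5 FPKM. The 2 libraries with both agents lay above all 6 others, with a rise of 0.35 ± 0.08 over inflamed hIECs (adjusted p = 0.0293, lost in 6 of 16 alternatives) and of 0.37 ± 0.08 over normal hIECs with PM10 (adjusted p = 0.00492).

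HSPA5, the gene of BiP and the classical reporter of ER stress, moved little. HSPA5 stood at 226 and 190.4 FPKM in normal hIECs and at 231 and 226 FPKM after PM10. With cytokines the level was 252 and 243 FPKM without PM10 and 241 and 241 FPKM with PM10. The change with cytokines was 0.25 ± 0.077 without PM10 (adjusted p = 0.0257) and 0.076 ± 0.077 with it (adjusted p = 0.411), and the former was 0.13 without normal replicate 2, whose 190 FPKM is the lowest value, and 0.38 without normal replicate 1. HSP90B1, the ER form of HSP90 (GRP94), stood at 559 and 529 FPKM in normal hIECs and at 477 and 464 FPKM after PM10. Its values were 593 and 605 FPKM in inflamed hIECs and 532 and 564 FPKM in those with PM10. It fell by 0.21 ± 0.05 with PM10 in normal hIECs (adjusted p = 0.0466), a change that turned to 0.035 after quantile normalization. It rose with cytokines by 0.14 ± 0.05 (adjusted p = 0.0466) without PM10, a call lost in 12 of 16 alternatives, and by 0.22 ± 0.05 (adjusted p = 0.00646) with PM10. SDF2L1, a partner of ER co-chaperones, fell. SDF2L1 stood at 29.97 and 30.1 FPKM in normal hIECs and at 26.0 and 25.7 FPKM after PM10. The level in inflamed hIECs was 26.5 and 26.4 FPKM, against 24.0 and 23.9 FPKM with both agents. Both normal libraries lay above all others (-0.18 ± 0.044 with cytokines, adjusted p = 0.0109; -0.21 ± 0.044 with PM10, adjusted p = 0.0305, lost in 9 of 16 alternatives). CRELD2 and MANF, small secreted ER proteins, were called lower with cytokines when PM10 was present (-0.23 ± 0.072, adjusted p = 0.0259, and -0.30 ± 0.10, adjusted p = 0.0279) and were at -0.15 and -0.026 without it. The disulfide isomerase gene PDIA4 rose with cytokines in both settings (0.24 and 0.35, adjusted p = 0.00328 and 0.000367), while PDIA3 and the BiP co-chaperone gene DNAJB11 passed without PM10 (0.20 and 0.34, adjusted p = 0.0354 and 0.0440, lost in 8 and 7 of 16 alternatives) and not with it (0.12 and 0.21, adjusted p = 0.149 and 0.167).

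ER-associated degradation holds the strongest rise of the set. EDEM1 (chr3:5187646-5219958, plus strand; gene positions are GRCh38, GENCODE 44), which takes terminally misfolded glycoproteins out of the folding cycle, stood at 7.23 and 5.65 FPKM in normal hIECs and at 7.79 and 7.67 FPKM after PM10. Among cytokine-treated libraries the values were 15.3 and 14.9 FPKM without and 18.2 and 18.2 FPKM with PM10. The lowest library with cytokines held 14.9 FPKM and the highest without them 7.79 FPKM. The rise was 1.122 ± 0.095 (adjusted p = 5.53e-05) without PM10 and 1.14 ± 0.095 (adjusted p = 3.76e-05) with it. SEL1L (chr14:81471547-81533853, minus strand), the adaptor that joins substrates to the ubiquitin ligase HRD1, stood at 8.86 and 8.19 FPKM in normal hIECs and at 9.11 and 8.41 FPKM after PM10. Inflamed hIECs held 14.04 and 13.8 FPKM without PM10 and 18.2 and 18.0 FPKM with it. Its levels with and without cytokines did not overlap either, and the libraries with both agents were the highest. The changes were 0.65 ± 0.062 (adjusted p = 0.000104), 0.97 ± 0.062 (adjusted p = 9.78e-06) and, for PM10 in inflamed hIECs, 0.35 ± 0.062 (adjusted p = 0.0118). The last of these calls was lost in 4 of 16 alternatives. In normal hIECs PM10 changed SEL1L by 0.035 ± 0.062 (adjusted p = 0.743), and the difference between its PM10 changes had an adjusted p of 0.0810.

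SYVN1, which encodes HRD1 itself, was not called higher with cytokines. It stood at 12.9 and 16.2 FPKM in normal hIECs and at 16.8 and 16.5 FPKM after PM10. The inflamed libraries held 14.8 and 15.003 FPKM, and those with both agents 13.5 and 14.01 FPKM. The change with cytokines was 0.041 ± 0.093 (adjusted p = 0.729) without PM10 and -0.26 ± 0.093 (adjusted p = 0.0415) with it, a call lost in 10 of 16 alternatives. Its exons overlap those of the ribosomal gene FAU, listed at up to 585 FPKM, so its level is uncertain in these unstranded libraries. HERPUD1, which organises the HRD1 complex and carries both an ERSE-II and a CARE, stood at 26.6 and 20.9 FPKM in normal hIECs and at 32.1 and 30.2 FPKM after PM10. With cytokines the level was 29.1 and 28.01 FPKM without PM10 and 32.6 and 27.3 FPKM with PM10. It passed the test in no comparison, the largest change being 0.39 ± 0.12 with PM10 in normal hIECs (adjusted p = 0.0849), where both libraries with PM10 lay above both without.

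**Figure D2:**
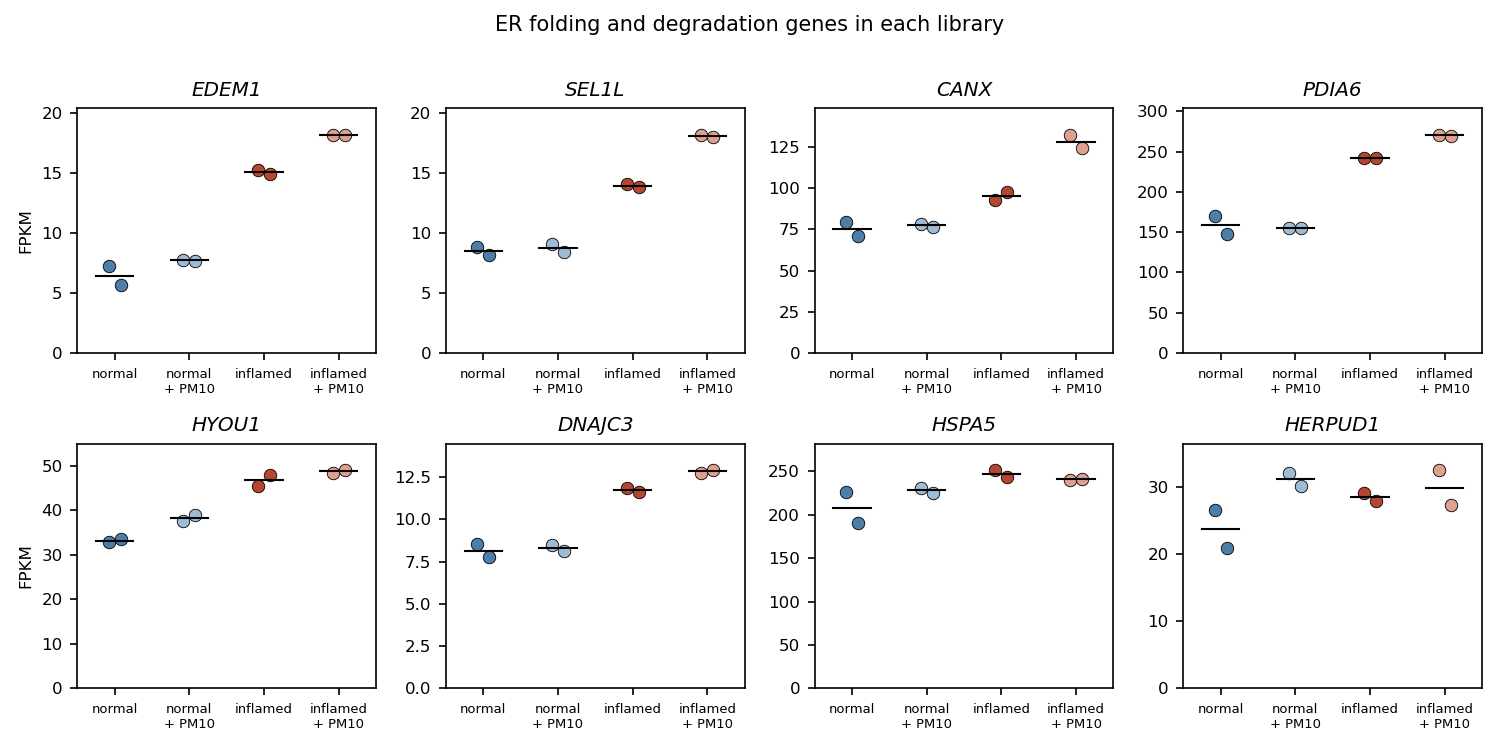
FPKM (y axis, from 0) of 8 folding and degradation genes in each library; points are libraries, bars are group means over 2 libraries. EDEM1, SEL1L, PDIA6 and DNAJC3 are higher in all 4 cytokine-treated libraries than in the 4 others, and CANX is highest with both agents (124 and 132 FPKM). For HERPUD1 both inflamed libraries lie above both normal ones, and with PM10 the groups with and without cytokines overlap.

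Among the 5 feedback and growth-braking genes, 4 rose with cytokines in the absence of PM10, where 25.9% of all genes were called higher. When PM10 was added to inflamed hIECs 3 of the 5 fell, where 9.02% of all genes were called lower. The summed level of the 5 genes was 46.8 to 52.2 FPKM in normal hIECs and 49.5 to 49.9 FPKM with PM10. It was 68.7 to 71.0 FPKM in inflamed hIECs and 51.8 to 53.6 FPKM with both. TRIB3 (chr20:362835-397559, plus strand), a pseudokinase that binds AKT and ATF4, stood at 8.67 and 10.9 FPKM in normal hIECs and at 8.73 and 8.55 FPKM after PM10. Its values were 13.5 and 14.2 FPKM in inflamed hIECs and 7.39 and 7.34 FPKM in those with PM10. The inflamed libraries were the highest and the libraries with both agents the lowest of the 8. Cytokines raised TRIB3 by 0.47 ± 0.094 (adjusted p = 0.00397) without PM10, and with PM10 the change was -0.20 ± 0.094 (adjusted p = 0.0915). In inflamed hIECs PM10 lowered it by 0.83 ± 0.094 (adjusted p = 0.00218), in normal hIECs the change was -0.15 ± 0.094 (adjusted p = 0.323), and these differ by -0.68 ± 0.13 (interaction, adjusted p = 0.0303). That call was lost in 8 of 15 alternatives. DDIT4 (REDD1, chr10:72273919-72276036, plus strand), an inhibitor of mTORC1 signalling, stood at 13.2 and 12.7 FPKM in normal hIECs and at 13.03 and 13.4 FPKM after PM10. The level in inflamed hIECs was 21.0 and 19.2 FPKM, against 12.7 and 12.6 FPKM with both agents. The inflamed libraries without PM10 stood above all others, which lay between 12.6 and 13.4 FPKM. The change was 0.60 ± 0.06 with cytokines (adjusted p = 0.000124), -0.63 ± 0.06 with PM10 in inflamed hIECs (adjusted p = 0.00118) and 0.031 ± 0.06 with PM10 in normal hIECs (adjusted p = 0.767). The interaction of -0.66 ± 0.084 (adjusted p = 0.00707) passed under all 15 alternatives run.

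CHAC1 (chr15:40952962-40956512, plus strand) was likewise highest in inflamed hIECs, at lower levels. It encodes an enzyme that breaks down glutathione and is a target of ATF4. CHAC1 stood at 4.02 and 5.71 FPKM in normal hIECs and at 3.90 and 3.69 FPKM after PM10. Among cytokine-treated libraries the values were 8.15 and 7.62 FPKM without and 5.32 and 5.02 FPKM with PM10. It rose with cytokines by 0.61 ± 0.13 (adjusted p = 0.00488) and fell by 0.53 ± 0.13 when PM10 was added to inflamed hIECs (adjusted p = 0.0345), a call lost in 8 of 16 alternatives. With PM10 in both groups it was still raised by 0.36 ± 0.13 (adjusted p = 0.0369, lost in 7 of 16 alternatives), and the interaction was -0.25 ± 0.18 (adjusted p = 0.453). PPP1R15A (GADD34), which brings phosphatase back to eIF2, stood at 13.3 and 15.3 FPKM in normal hIECs and at 15.7 and 14.6 FPKM after PM10. Inflamed hIECs held 19.7 and 19.1 FPKM without PM10 and 18.5 and 17.8 FPKM with it. It rose with cytokines in both settings (0.41 ± 0.075, adjusted p = 0.00249, and 0.25 ± 0.075, adjusted p = 0.0213) and its changes with PM10 were 0.08 and -0.088, neither past the test. SESN2, a sensor of leucine that restrains mTORC1, was not called anywhere; it stood at 7.66 and 7.67 FPKM in normal hIECs and at up to 9.65 FPKM in the other libraries, all of which lay higher.

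Over all 35 genes, 0 were called higher and 2 lower (TRIB3 and DDIT4) in the interaction by limma, where 2.11% of all genes tested were called higher and 4.48% lower. At an unadjusted p under 0.05 there were 3 higher and 6 lower, and over the 14206 genes 1042 higher and 2315 lower. The medians were -0.074 over the 35 genes and -0.061 over all genes. After median centring and after quantile normalization CANX, SEL1L and DNAJB9 were called higher (3 genes) and TRIB3 was not called; DDIT4 stayed lower, alone after centring and with CALR after quantile normalization. Leaving out 1 library leaves 1 library in a group, and the number of calls and the shares of all genes then moved. Over the 15 alternatives the interaction ran from -0.73 to -0.59 for DDIT4 and from -0.83 to -0.53 for TRIB3.

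Of the amino acid enzymes, PHGDH (chr1:119648411-119744218, plus strand) fell in every pairwise comparison. It catalyses the first step from glycolysis to serine. PHGDH stood at 63.9 and 67.9 FPKM in normal hIECs and at 51.4 and 52.7 FPKM after PM10. The inflamed libraries held 37.8 and 35.8 FPKM, and those with both agents 23.4 and 23.2 FPKM. The 4 groups did not overlap, and each agent lowered it alone and on top of the other. PM10 gave -0.33 ± 0.053 in normal hIECs (adjusted p = 0.0136, lost in 3 of 16 alternatives) and -0.64 ± 0.053 in inflamed hIECs (adjusted p = 0.000709). Cytokines gave -0.82 ± 0.053 without PM10 (adjusted p = 1.38e-05) and -1.13 ± 0.053 with it (adjusted p = 2.14e-06). The group with both agents held 23.3 ± 0.169 FPKM against 65.9 ± 2.83 FPKM in normal hIECs (mean ± SD, n = 2 each). The next enzyme of that pathway, PSAT1, was called lower with PM10 in both settings and in neither cytokine comparison. PSAT1 stood at 24.8 and 25.8 FPKM in normal hIECs and at 17.3 and 18.3 FPKM after PM10. With cytokines the level was 27.1 and 24.4 FPKM without PM10 and 19.4 and 20.2 FPKM with PM10. All 4 libraries with PM10 lay below all 4 without it, with changes of -0.49 ± 0.065 (adjusted p = 0.00797) and -0.36 ± 0.065 (adjusted p = 0.0132). These calls were lost in 2 and 3 of 16 alternatives. The cytokine changes were 0.021 ± 0.065 (adjusted p = 0.801) and 0.15 ± 0.065 (adjusted p = 0.0789).

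ASNS, the asparagine synthetase gene, passed the test with cytokines in the absence of PM10. ASNS stood at 17.8 and 16.9 FPKM in normal hIECs and at 20.6 and 14.4 FPKM after PM10. Its values were 23.0 and 27.2 FPKM in inflamed hIECs and 16.4 and 17.8 FPKM in those with PM10. The inflamed libraries were the highest of the 8, with a rise of 0.50 ± 0.15 (adjusted p = 0.0249), a call lost in 3 of 16 alternatives. The change with cytokines in the presence of PM10 was -0.011 ± 0.15 (adjusted p = 0.955). PM10 in inflamed hIECs gave -0.52 ± 0.15 (adjusted p = 0.0604) and the interaction was -0.51 ± 0.22 (adjusted p = 0.205). Its replicates in normal hIECs with PM10 were the farthest apart of the 35 genes in that group (0.49 on the log2 scale). The exons of ASNS overlap those of another annotated gene, listed at up to 8.34 FPKM, so the ASNS level is uncertain in these unstranded libraries. VLDLR, the very low density lipoprotein receptor, which PERK signalling is known to raise, fell with cytokines. It stood at 4.75 and 4.32 FPKM in normal hIECs and at 3.52 and 3.60 FPKM after PM10. The level in inflamed hIECs was 1.93 and 1.63 FPKM, against 1.79 and 1.65 FPKM with both agents. The changes were -0.99 ± 0.085 (adjusted p = 5.97e-05) and -0.75 ± 0.085 (adjusted p = 0.000192), with no overlap between cytokine-treated and other libraries.

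**Figure D3:**
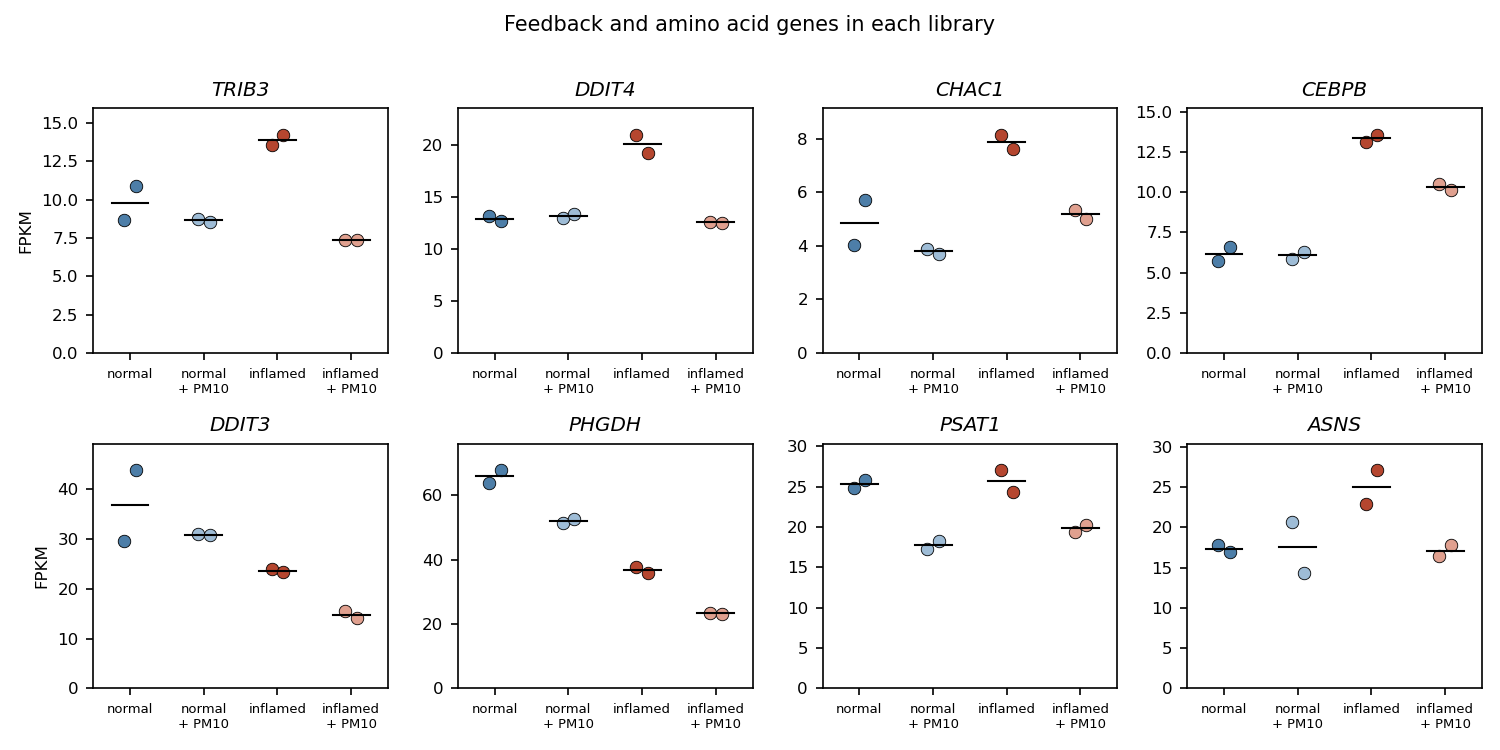
FPKM (y axis, from 0) of feedback genes, of the transcription factor genes CEBPB and DDIT3 and of amino acid enzymes in each library; points are libraries, bars are group means over 2 libraries. TRIB3, DDIT4, CHAC1 and ASNS are highest in inflamed hIECs without PM10, PHGDH steps down from 63.9 and 67.9 FPKM in normal hIECs to 23.2 and 23.4 FPKM with both agents, and PSAT1 is lower in all 4 libraries with PM10.

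Setting both cytokine comparisons side by side shows where PM10 went with a different cytokine response. Without PM10 the change was 0.47 for TRIB3, 0.60 for DDIT4 and 0.50 for ASNS, and with PM10 it was -0.20, -0.065 and -0.011. For TRIB3 and DDIT4 that difference passed the interaction test, and for ASNS it did not. EDEM1 lay near the line of equal change (1.122 and 1.14), as did ATF6 (0.35 and 0.35), with interactions (± SE) of 0.014 ± 0.13 and -0.0037 ± 0.10.

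**Figure D4:**
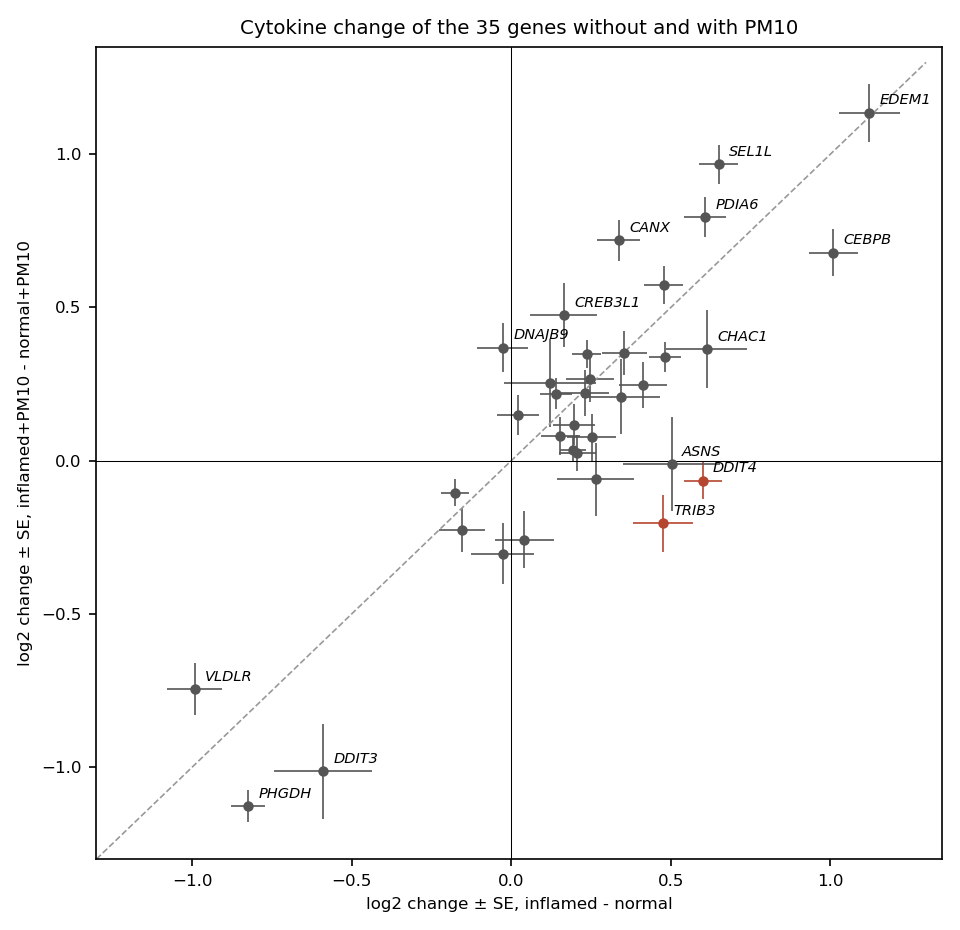
Log2 change with cytokines without PM10 (x axis) and with PM10 (y axis) for the 35 genes, with SE bars; the dashed line marks equal change. TRIB3 and DDIT4, in red, passed the interaction test and lie below the line, EDEM1 lies close to it at 1.122 and 1.14, and PHGDH, DDIT3 and VLDLR are low in both.

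Calls were counted apart for the 10 genes in which an ERSE or ERSE-II was found and for the 25 others, which include PDIA3, whose upstream bases were not searched. With cytokines and no PM10, 7 of these 10 were called higher and 1 lower (SDF2L1), with a median change of 0.23, and of the 25 others 15 were called higher and 3 lower, with a median of 0.24 (all genes: 25.9% higher, 30.3% lower). With PM10 present, 4 of the 10 were higher and 1 lower (median 0.056), and 12 of the 25 higher and 5 lower (median 0.22; all genes: 25.8% higher, 39.6% lower). Within the 10, PDIA6, CANX, HSP90B1 and HYOU1 rose in both comparisons and HSPA5, CALR and XBP1 passed in the first only, with no interaction past the test (adjusted p = 0.377, 0.150 and 0.236). Of the 3 genes with a CARE, ASNS and CHAC1 were called higher with cytokines in the absence of PM10 and CHAC1 in its presence, and HERPUD1 in neither.

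Replicates of normal hIECs lay farther apart than those of the other groups. The median absolute gap between the replicates over the 35 genes, in log2 units, was 0.15 for normal hIECs and 0.037 to 0.051 for the other groups. Over all genes it was 0.12 and 0.069 to 0.074. Normal replicate 2 was higher than replicate 1 for DDIT3 (by 0.55), CHAC1 (0.42), ATF4 (0.40), CREB3L1 (0.35), SYVN1 (0.30) and TRIB3 (0.30). It was lower for HERPUD1, EDEM1, DNAJB11 and HSPA5, by 0.25 to 0.33. The same library held 24.2% of its FPKM in mitochondrial genes against 17% in replicate 1. The part of either in the results was not tested beyond leaving each library out.

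Other genes of the pathway were read from 8 lists of 126 genes, of which 124 were tested. With cytokines and no PM10, 58 were called higher and 19 lower, and all counts below are to be read against the 25.9% of all genes called higher and 30.3% called lower in that comparison. Of degradation genes outside the set, 11 of 14 tested were called higher, with the largest changes in SELENOS (0.73 ± 0.092, adjusted p = 0.000404), UFD1 (0.54) and UBXN4 (0.54), all parts of the machinery that pulls substrates into the cytosol. Of 18 other folding and oxidation genes, 7 were higher and 5 lower, with ERO1A, the oxidase of the disulfide isomerases, at 0.95 ± 0.063 (adjusted p = 1.73e-05), the glycoprotein folding sensor UGGT1 at 0.88 and the proline isomerase gene FKBP14 at 0.68. Of 16 translocation and signal peptidase genes, 7 were higher and 4 lower, with SSR1 at 0.87, SPCS3 at 0.55 and SSR4 at -0.54, and 5 were called higher with PM10 in inflamed hIECs, where 6.22% of all genes were.

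Of 23 genes tested on a list of other ATF4 targets and amino acid stress genes, 10 were called higher and 2 lower with cytokines. With PM10 in inflamed hIECs 6 were called lower, where 9.02% of all genes were. ATF3, a stress-induced factor gene, stood at 2.84 and 2.51 FPKM in normal hIECs and at 4.41 and 4.72 FPKM after PM10. Among cytokine-treated libraries the values were 23.3 and 21.7 FPKM without and 20.9 and 21.1 FPKM with PM10. It rose by 2.68 ± 0.069 with cytokines (adjusted p = 1.49e-07) and by 0.60 ± 0.069 with PM10 in normal hIECs (adjusted p = 0.00467), and did not change past the test with PM10 in inflamed hIECs (-0.095 ± 0.069, adjusted p = 0.383). GDF15, a secreted stress hormone, stood at 32.8 and 38.9 FPKM in normal hIECs and at 35.1 and 38.2 FPKM after PM10. Inflamed hIECs held 23.9 and 24.7 FPKM without PM10 and 10.2 and 10.3 FPKM with it. It fell by 1.17 ± 0.084 with PM10 in inflamed hIECs (adjusted p = 0.000397), and its interaction was -1.203 ± 0.12 (adjusted p = 0.00247). The cystine transporter gene SLC7A11 and STC2 rose with cytokines by 1.03 and 1.01 (adjusted p = 6.37e-05 and 1.93e-05).

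Among 20 cytosolic tRNA synthetase genes, 10 were called higher and 1 lower with cytokines. WARS1, the tryptophan enzyme, which interferon is known to induce, stood at 74.3 and 77.8 FPKM in normal hIECs and at 118 and 118 FPKM after PM10. The inflamed libraries held 536 and 543 FPKM, and those with both agents 574 and 554 FPKM. Its change with cytokines was 2.81 ± 0.044 (adjusted p = 1.20e-08). YARS1 and CARS1 followed at 0.51 and 0.51. Of 13 genes of eIF2, its kinases and its phosphatase partner, 5 were higher and 2 lower. EIF2AK2 (PKR), the kinase that senses double-stranded RNA, stood at 3.41 and 3.29 FPKM in normal hIECs and at 3.82 and 3.72 FPKM after PM10. With cytokines the level was 8.01 and 7.88 FPKM without PM10 and 8.76 and 9.10 FPKM with PM10. It changed by 1.04 ± 0.06 with cytokines (adjusted p = 8.38e-06), and EIF2S1 and EIF2S2, subunits of eIF2, changed by 0.57 and 0.38. Cytosolic heat shock genes were called in both directions with cytokines (5 higher and 4 lower of 12, HSPA1A at -0.65, HSPA1B at -0.61 and DNAJA1 at 0.48), and upward with PM10 (3 of 12 in normal and 4 of 12 in inflamed hIECs, where 5.51% and 6.22% of all genes were). Of 8 mitochondrial chaperone and protease genes, 3 were higher and 1 lower with cytokines, TRAP1 at -0.73, YME1L1 at 0.51 and HSPA9 at 0.32.

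**Figure D5:**
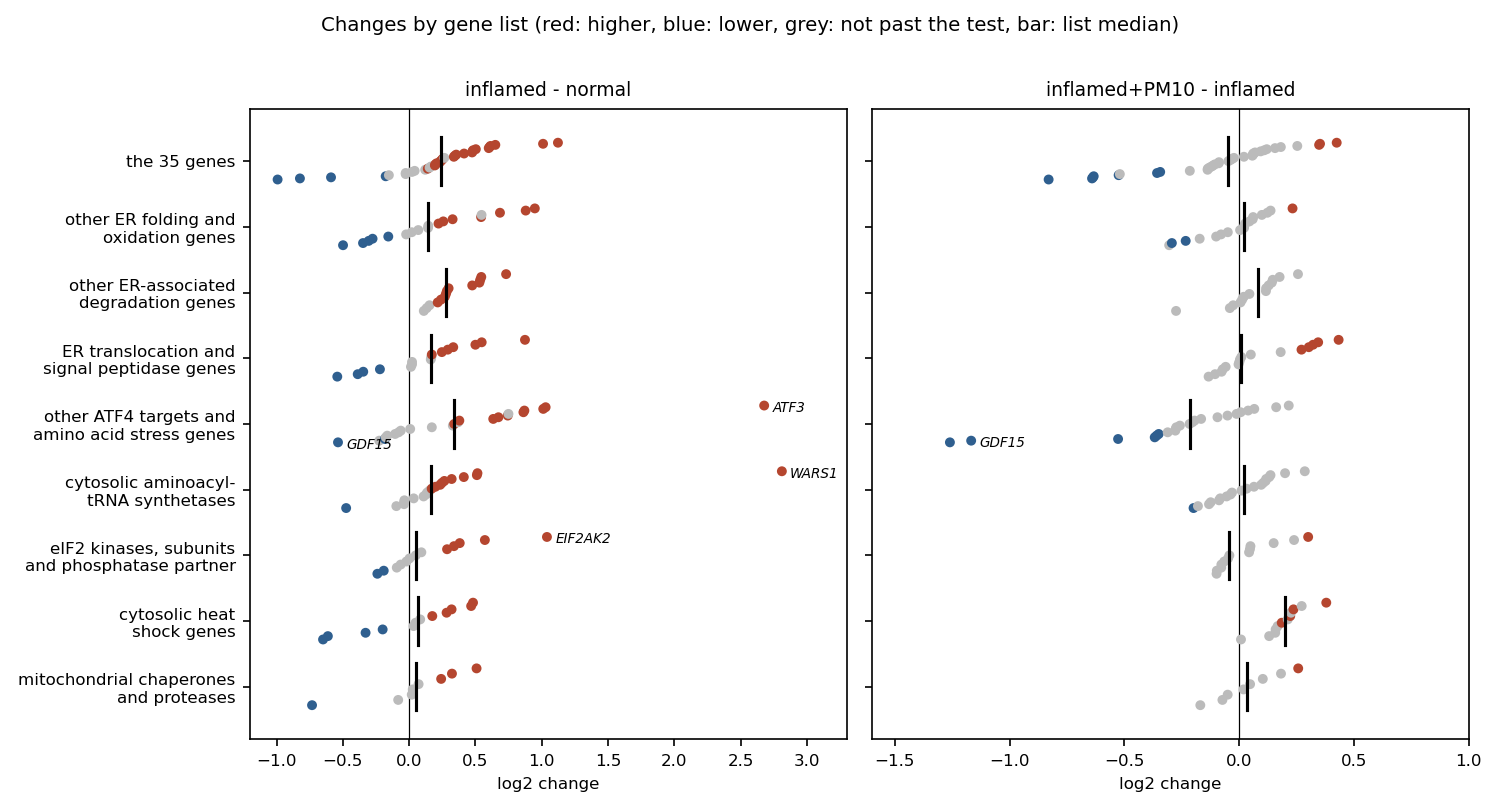
Log2 change (x axis) of each gene on each list (rows; the 35 genes at the top), with cytokines and no PM10 on the left and with PM10 in inflamed hIECs on the right; black bars are list medians. The degradation list holds 11 red points on the left, and the list of ATF4 targets and amino acid stress genes 6 blue points on the right.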

How the data were processed

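RNA-seq of 8 libraries was analysed, 2 in each of 4 groups taken from the sample labels. The authors deposited FPKM values per gene; they trimmed reads with Cutadapt 3.7 and Sickle 1.33 (Phred 20, reads under 50 bases dropped), aligned them to GRCh38 with HISAT2 2.2.1 and quantified them with StringTie 2.2.0. The annotation release is not given in the sources used here. Libraries were poly(A)-selected and not strand-specific. Counts are not used here, so the depth of each library is unknown.

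Rows were matched to the 35 genes by symbol. Levels were tested as log2(FPKM + 1) with limma 3.58.1 (R 4.3.3; intensity trend, 4 residual degrees of freedom) over 14206 genes (those reaching 1 FPKM in 2 or more libraries), in 1 fit of all 8 libraries, two-sided, with Benjamini-Hochberg adjustment over all genes in each of 5 comparisons (PM10 in normal and in inflamed hIECs, cytokines without and with PM10, and their interaction). An exact permutation test of 2 against 2 libraries cannot go below p = 0.333. Comparisons that share libraries are not independent, and all 5 share the estimate of the spread of each gene. The procedure was tested on simulated data. Alternatives were a pseudocount of 0.1, 2 other filters, median centring, quantile normalization, no trend, a fit of the compared groups alone, a replicate block and leaving out each library. The members and lists were chosen with earlier results of these data known. Of the other pathway genes, up to 3 per list with the largest change among those called with cytokines and no PM10 are named, together with WARS1, EIF2AK2, ATF3 and GDF15. Tables were read with Python 3.11.15 and pandas 2.3.3, and plots drawn with matplotlib 3.10.9. Gene positions come from GENCODE 44, which matched 60261 of the 60558 gene IDs (99.5%), and upstream sequence from RefSeq (GRCh38.p14).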

Additional observations from a re-analysis of the deposited data

Results flagged for a closer look

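For 2 of the 35 genes the change with PM10 differed between inflamed and normal hIECs by the interaction test of limma. Of all genes tested, 2.11% were called higher and 4.48% lower there, so the count is not particular to the 35 genes. For TRIB3 the difference was -0.68 on the log2 scale (adjusted p = 0.0303), from -0.83 in inflamed and -0.15 in normal hIECs, with both inflamed libraries lower with PM10 than without it. For DDIT4 it was -0.66 (adjusted p = 0.00707), from -0.63 and 0.031. TRIB3 lost the call in 8 of 15 alternatives, with an adjusted p of up to 0.105, and DDIT4 in none.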

How the results depend on the processing

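Of the calls, 16 of 26 with cytokines and no PM10, 14 of 22 with cytokines and PM10, 3 of 10 with PM10 in inflamed hIECs, 0 of 5 with PM10 in normal hIECs and 1 of 2 in the interaction held in every alternative run (16, or 15 for the interaction). Leaving out 1 library gave 17 to 26, 15 to 25, 3 to 15, 0 to 11 and 1 to 10 calls, in that order. The shares of all genes called moved as well. With PM10 in inflamed hIECs they ran from 1.67% to 9.69% higher and from 3.07% to 11.4% lower. With PM10 in normal hIECs, 3 were called when every gene above 0 in any library was tested, 2 without the trend and 0 in a fit of the compared groups alone. The interaction gave 4 calls after median centring, where 3.19% of all genes were called higher and 3.79% lower. After quantile normalization it gave 5, where the shares were 2.99% and 3.43%. The change of HSP90B1 with PM10 in normal hIECs turned from -0.21 to 0.035 after quantile normalization (adjusted p = 0.778), and the cause was not tested. Deviations of same-numbered libraries from their group means were hardly correlated over genes (-0.0015 to 0.079 between groups). That cannot show whether the numbers pair the libraries. A replicate block gave 26, 23, 10, 5 and 2 calls, in the order of comparisons given above. Depth is unknown, so the counting error of low genes such as ERN1 cannot be given.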
